A study of Arabidopsis thaliana with 4 samples.

Results

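The flavonoid and anthocyanin pathway was followed through 10 *Arabidopsis thaliana* loci, 7 that encode enzymes of the pathway and 3 that encode transcription factors controlling it. They were selected by locus identifier from the annotation of the array probes and not by a rule on the measured signals. Earlier results of these data were, however, known when they were chosen. They are 10 of the 25665 loci with a probe on the array. RNA came from meristem-enriched tissue (Me) and from young leaves (Le), with 2 biological replicates of each tissue and 1 one-colour Agilent array per replicate. All plants of both tissues were *clavata3-9* (*clv3-9*) mutants in the Columbia background, which carry a point mutation that disrupts CLV3, a signalling peptide restricting the size of the shoot meristem. Every difference given here is therefore one between tissues of the mutant. The plants were kept for 9 weeks in short days (8 h light, 16 h darkness), and both tissues were separated by hand, which enriches meristem cells without purifying them. In such bulk tissue, fewer cells of a type and less RNA per cell cannot be told apart.

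Flavonoids are made from phenylalanine. The general phenylpropanoid enzymes turn it into coumaroyl-CoA, chalcone synthase condenses this with malonyl-CoA, and the product passes through chalcone isomerase and flavanone 3-hydroxylase to dihydroflavonols, where the pathway divides. Flavonol synthase leads to flavonols, which act as ultraviolet screens and influence auxin transport, whereas dihydroflavonol reductase and leucoanthocyanidin dioxygenase lead to the anthocyanin pigments of stressed leaves and stems and to the proanthocyanidins of the seed coat. In *Arabidopsis* the early steps are controlled mainly by the MYB factors MYB11, MYB12 and MYB111 and the late steps by complexes of a MYB factor, a bHLH factor and the WD40 protein TTG1.

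Before scaling, the 75th percentile of the processed signals was 874 and 978 in the meristem replicates and 606 and 794 in the leaf replicates, and the scanner software placed 60.1% to 63.3% of the probes well above background. All 4 arrays lie on 1 slide. Signals are given below as the log2 of the processed signal after scaling each array to its 75th percentile, and every tissue difference is the mean log2 signal in the meristem minus that in the leaf. The tissue labels were checked with marker genes. Of 6 meristem markers 5 were higher in the meristem (*STM* by 6.73, *CLV3* by 5.61, *KNAT1* by 5.58 and *KNAT2* by 5.34 on the log2 scale, and *WUS*, not well above background in the leaf, at least 33.0-fold), while the receptor kinase gene *CLV1* was lower in the meristem, with a difference of -1.23. All 5 leaf markers were lower in the meristem, from -2.22 for *RBCS1A* and -2.28 for *LHCB1.2* to -7.41 for *LHCB1.4*, -7.44 for *RBCS1B* and -9.92 for *CA1*. Their normalized signals summed to 181800 and 151100 in the meristem replicates and to 1255000 and 1063000 in the leaf replicates.

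Each of the 10 loci was read by 1 probe of 60 bases. No probe was saturated on any array, and 9 of the 10 were well above background on all 4 arrays; the exception was *PAP2* (*PRODUCTION OF ANTHOCYANIN PIGMENT 2*), which was well above background on both leaf arrays and on 1 of the 2 meristem arrays. All 10 passed the filter on expression and were tested. A difference counted as passed where limma gave a p, adjusted over the 23259 loci tested by the method of Benjamini and Hochberg, of no more than 0.05.

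Of the 10 genes, 3 were higher in the meristem (*F3H*, *F3'H* and *TT8*) and 2 were lower (*CHI* and *PAP1*), against 27.1% and 21.6% of all loci tested. The 5 genes past the threshold were thus 50% of the members, close to the 48.6% among all loci. The genes did not all move one way. Among the enzymes 2 were higher, 1 was lower and 4 did not pass, and among the regulators 1 was higher, 1 was lower and 1 did not pass. Only *PAP1* also reached a log2 difference of 2 in size, the threshold on size that the study used, in the direction of lower signal in the meristem, where 6.41% of all loci passed both thresholds. In the other direction 6.55% of all loci passed both, and none of the 10 genes did, in limma or in the methods' t-test, since the largest positive difference was 1.22. The call of *PAP1* did not hold in the methods' t-test without adjustment, where its p was 0.0539.

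Without regard to any threshold, the 2 meristem arrays lay above the 2 leaf arrays for 4 genes, a pattern of 43.8% of all loci, and below them for 3, a pattern of 35.5%, whereas the tissues overlapped for *FLS1*, *DFR* and *LDOX*. The share of genes without overlap was 70.0%, against 79.3% of all loci. The median difference of the 10 genes was 0.12 on the log2 scale and that of all loci 0.10, and the median size of the difference was 0.73 against 0.59. The smallest two-sided p that an exact permutation of 2 against 2 arrays can give is 0.333, and the p-values therefore come from the fit across all loci.

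**Figure D1:**
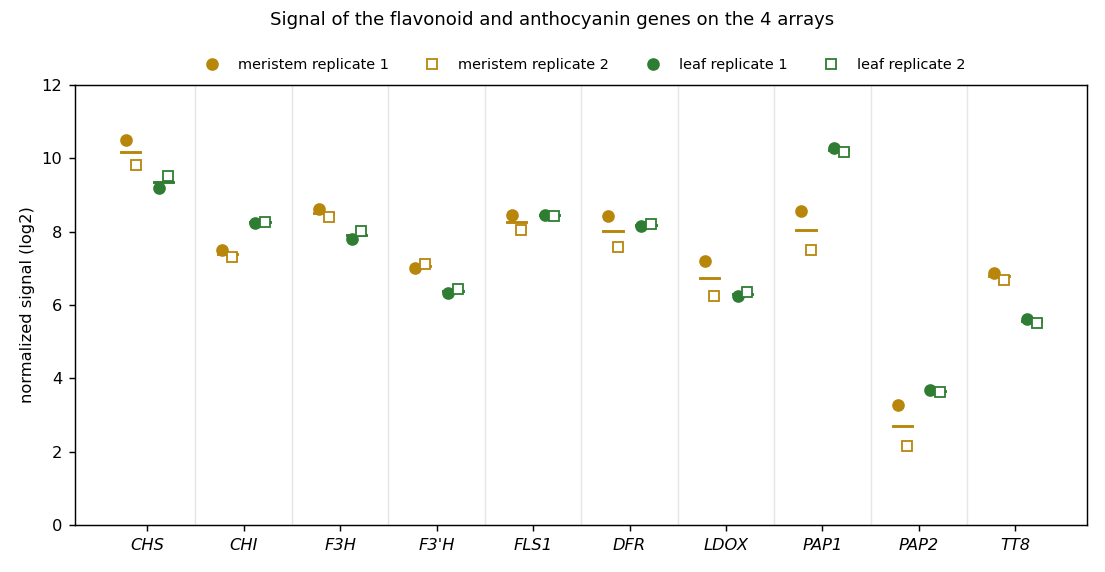
Normalized signal (log2, y axis) of the 10 genes (x axis) on each array; filled circles are replicate 1, open squares replicate 2, and short lines the mean of the 2 arrays of a tissue, with the meristem in ochre and the leaf in green. The leaf pairs lie close together, while for *CHS*, *DFR*, *LDOX*, *PAP1* and *PAP2* the 2 meristem arrays are more than 0.5 apart, with replicate 1 above replicate 2.

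The enzymes are described in the order of the pathway. *CHS* (AT5G13930, probe on chromosome 5 from 4489704 to 4489763, in the coordinates of the array files, which name no genome build) encodes chalcone synthase, the entry point of flavonoid synthesis. Its normalized log2 signal was 10.51 and 9.82 in the meristem and 9.20 and 9.53 in the leaf. Both meristem arrays were above both leaf arrays, but the higher leaf array and the lower meristem array differed by less than either pair of replicates. The difference of 0.80 ± 0.29 (SE) did not pass the test, with an adjusted p of 0.0822 by limma. It was 0.46 with an adjusted p of 0.163 without meristem replicate 1, and 1.14 with an adjusted p of 0.0222 without meristem replicate 2.

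*CHI* (AT3G55120, chromosome 3, 20441241 to 20441300) encodes chalcone isomerase, which closes the ring of the flavanone. Its signal was 7.49 and 7.32 in the meristem and 8.24 and 8.27 in the leaf, so that the tissues were well separated and the leaf was higher. The difference of -0.85 ± 0.13 (SE; 95% confidence interval -1.2 to -0.50) passed with an adjusted p of 0.00824 by limma, which is a 1.80-fold lower signal in the meristem. The call was lost without leaf replicate 2, with an adjusted p of 0.0513, and also without scaling of the arrays (-0.43, adjusted p of 0.341) and with scaling to spike-in probes (-0.083, adjusted p of 0.626).

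*F3H* (AT3G51240, chromosome 3, 19037490 to 19037549) encodes flavanone 3-hydroxylase, which makes the dihydroflavonols. Its signal was 8.62 and 8.39 in the meristem and 7.79 and 8.02 in the leaf. The meristem was higher on both arrays, by 0.60 ± 0.16 (SE) or 1.52-fold, with an adjusted p of 0.0393 by limma that lies near the threshold. With the replicate number as a block it was 0.0725. Leaving out any single array other than meristem replicate 2 ended this call, with adjusted p-values of 0.104 without meristem replicate 1, 0.190 without leaf replicate 1 and 0.0829 without leaf replicate 2.

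*F3'H* (AT5G07990, chromosome 5, 2562675 to 2562734) encodes flavonoid 3'-hydroxylase, which adds the hydroxyl group that separates quercetin and cyanidin from kaempferol and pelargonidin. Its signal was 7.0 and 7.11 in the meristem and 6.34 and 6.45 in the leaf, with replicates of both tissues closer to each other than to the other tissue. The meristem was 1.58-fold higher, a log2 difference of 0.66 ± 0.13 (SE; 95% confidence interval 0.32 to 1.00) with an adjusted p of 0.0155 by limma. Without leaf replicate 1 the adjusted p was 0.104 and without leaf replicate 2 it was 0.0686.

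*FLS1* (AT5G08640, chromosome 5, 2805113 to 2805172) encodes the main flavonol synthase and stands at the branch to the flavonols. Its signal was 8.45 and 8.05 in the meristem and 8.46 and 8.43 in the leaf, so that meristem replicate 1 fell between the leaf arrays and only replicate 2 was lower. The difference of -0.19 had a 95% confidence interval of -0.68 to 0.30 and an adjusted p of 0.419 by limma.

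*DFR* (AT5G42800, chromosome 5, 17181588 to 17181647) encodes dihydroflavonol reductase, the first step committed to anthocyanins and proanthocyanidins. Its signal was 8.43 and 7.59 in the meristem and 8.17 and 8.21 in the leaf. The leaf arrays lay between the meristem arrays, and the difference of -0.18 (95% confidence interval -1.03 to 0.67, adjusted p of 0.655 by limma) was smaller than the gap between the meristem replicates. Without meristem replicate 1 the difference was -0.60 with an adjusted p of 0.0409, and without meristem replicate 2 it was 0.24 with an adjusted p of 0.268, so that its sign rested on which meristem array was used.

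*LDOX* (AT4G22880, chromosome 4, 12005254 to 12005313) encodes leucoanthocyanidin dioxygenase, also called anthocyanidin synthase, which forms the coloured anthocyanidins. Its signal was 7.20 and 6.25 in the meristem and 6.25 and 6.34 in the leaf. Meristem replicate 1 stood alone above the other 3 arrays. The difference of 0.43 (95% confidence interval -0.52 to 1.38, adjusted p of 0.355 by limma) turned into 0.91 with an adjusted p of 0.0176 without meristem replicate 2 and into -0.05 with an adjusted p of 0.808 without meristem replicate 1.

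Among the 3 regulators, the MYB gene *PAP1* was lower in the meristem and the bHLH gene *TT8* was higher. *PAP1* (*PRODUCTION OF ANTHOCYANIN PIGMENT 1*, AT1G56650, chromosome 1, 21237407 to 21237466) encodes MYB75, an activator of the late anthocyanin genes whose overexpression gives purple plants. Its signal was 8.57 and 7.51 in the meristem and 10.29 and 10.18 in the leaf. The difference of -2.20 ± 0.38 (SE) was more than the meristem replicates' own gap of 1.06 and passed with an adjusted p of 0.0120 by limma, a signal 4.58-fold lower in the meristem (95% confidence interval 2.23 to 9.40). A smaller difference was found for 88.9% of all loci tested. The call held when any 1 array was left out, with differences between -2.73 and -1.67 and adjusted p-values between 0.00211 and 0.0362, but without meristem replicate 2 the difference fell short of 2 in size.

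*PAP2* (AT1G66390, chromosome 1, 24768765 to 24768824) encodes MYB90, a close relative of PAP1 with the same known activity. It was dim, with a signal of 3.26 and 2.15 in the meristem and 3.67 and 3.62 in the leaf, and processed signals of 10.5, 5.41, 9.64 and 12.2 before scaling. Both meristem arrays were below both leaf arrays after scaling. The difference of -0.94 ± 0.40 (SE) did not pass, with an adjusted p of 0.122 by limma; without meristem replicate 1 it was -1.5 with an adjusted p of 0.00527, and without meristem replicate 2 it was -0.38 with an adjusted p of 0.118.

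*TT8* (*TRANSPARENT TESTA 8*, AT4G09820, chromosome 4, 6186178 to 6186237) encodes the bHLH partner of these MYB factors, required for *DFR* expression and for the brown colour of the seed coat. Its signal was 6.88 and 6.69 in the meristem and 5.61 and 5.52 in the leaf, and the tissues were further apart than either pair of replicates. The meristem was 2.34-fold higher (95% confidence interval 1.81 to 3.02), a log2 difference of 1.22 ± 0.14 (SE) with an adjusted p of 0.00364 by limma, the lowest of the 10 genes. It passed without any 1 of the 4 arrays, with adjusted p-values between 0.00724 and 0.0225.

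**Figure D2:**
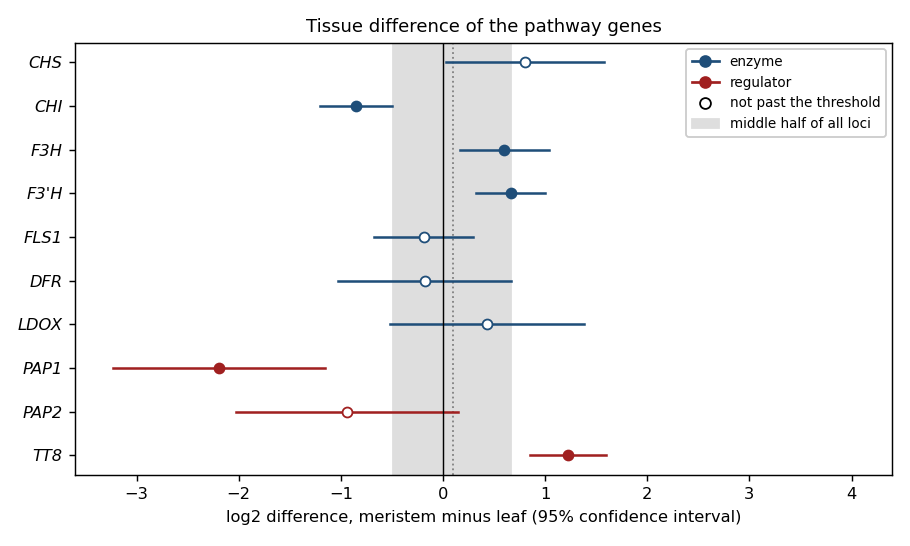
Log2 difference, meristem minus leaf (x axis), of the 10 genes with its 95% confidence interval; filled symbols passed an adjusted p of 0.05 and open ones did not, enzymes are blue and regulators red. The grey band runs from the 25th to the 75th percentile of all loci and the dotted line their median of 0.10; *CHS* at 0.80 and *TT8* at 1.22 lie above the band and *CHI* at -0.85, *PAP2* at -0.94 and *PAP1* at -2.20 below it.

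The meristem replicates differed in these genes more than the leaf replicates did. For 9 of the 10 genes, all but *F3'H*, meristem replicate 1 was higher than replicate 2, against 47.9% of all loci, and the median gap was 0.54 on the log2 scale against -0.02 for all loci. The gap was 0.68 for *CHS*, 0.85 for *DFR*, 0.96 for *LDOX*, 1.06 for *PAP1* and 1.11 for *PAP2*, the 5 genes in which replicate 1 was higher by at least 0.5, as it was for 9.69% of all loci. Between the leaf arrays the gap was no larger than 0.34 for any of the 10 genes, and the meristem gap, regardless of its sign, was the wider one for 9 of them, against 60% of all loci. Of the 44 further pathway genes tested, described below, 28 were higher in meristem replicate 1, with a median gap of 0.20. The meristem gap was the wider one for 31 of the 44. The median gap was 0.60 for the genes of anthocyanin decoration and transport and -0.08 for the general phenylpropanoid enzymes.

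Markers of cell types also differed between the meristem replicates, some in the direction of the gap of the 10 genes and others against it. All 5 leaf markers were higher in meristem replicate 1 than in replicate 2, by 0.10 to 1.74 on the log2 scale, as were the 3 epidermis markers (*ATML1*, *PDF1* and *PDF2*) and the 2 trichome markers (*GL1* and *GL2*), whereas the 3 vascular markers (*SUC2*, *IRX3* and *XCP1*) and 5 of the 6 meristem markers were lower. The summed normalized signal on meristem replicates 1 and 2 was 181800 and 151100 for the leaf markers, 16970 and 12890 for the epidermis markers, 1315 and 757.9 for the trichome markers, 3153 and 4400 for the vascular markers and 17930 and 23750 for the meristem markers. No marker was at 0; *CA1* was well above background on only 1 of the meristem arrays. Their part in the gap was not tested.

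**Figure D3:**
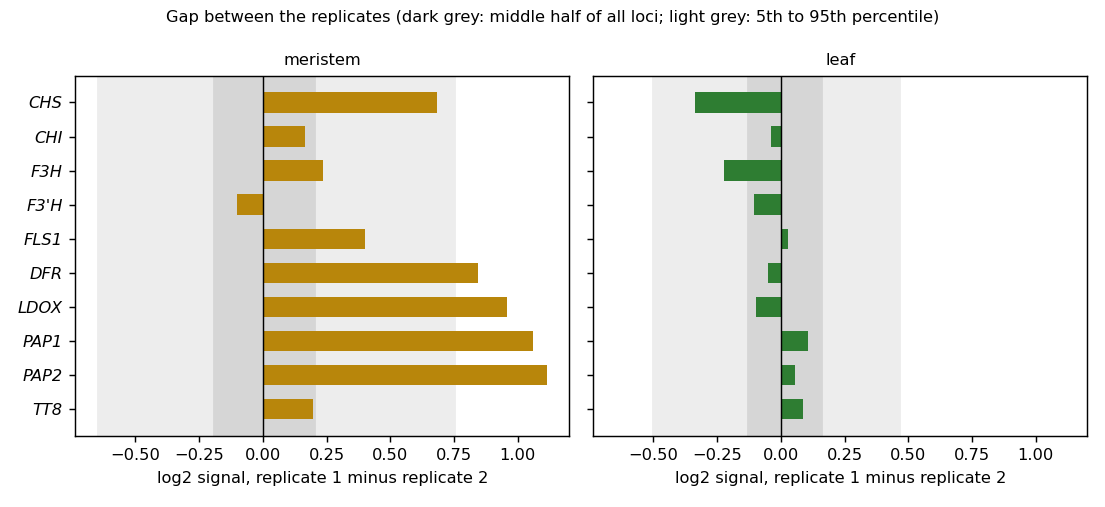
Gap between the replicates of a tissue, as log2 signal of replicate 1 minus replicate 2 (x axis), for the 10 genes in the meristem (left) and the leaf (right); the dark band runs from the 25th to the 75th percentile of all loci and the light band from their 5th to their 95th percentile. Of the meristem bars 9 point to replicate 1 and those of *DFR*, *LDOX*, *PAP1* and *PAP2* leave the light band, while all leaf bars stay inside it.

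Several regulators of the pathway, such as TTG1 and EGL3, also act in the formation of hairs on the epidermis. Between the tissues, *PDF1* was higher in the meristem by 1.70 (adjusted p of 0.00611 by limma), whereas *ATML1* and *PDF2* had differences of -0.16 and -0.10 that did not pass. *GL1*, a MYB gene of trichome initiation, had a signal of 9.42 and 8.23 in the meristem and 6.44 and 6.0 in the leaf, a difference of 2.61 with an adjusted p of 0.0119, and *GL2* a difference of 0.43 with an adjusted p of 0.160. The vascular markers *SUC2* and *XCP1* were lower in the meristem, with differences of -1.74 and -1.04, and *IRX3* had a difference of 0.69 with an adjusted p of 0.204. Summed over the list, the normalized signal on the meristem and leaf arrays was 1315 and 757.9 against 456.8 and 493.0 for the trichome markers, 16970 and 12890 against 8501 and 11410 for the epidermis markers and 3153 and 4400 against 9661 and 10220 for the vascular markers. The part of these cell types in the differences of the pathway genes was not tested.

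The rest of the pathway was read from 6 lists with 46 further genes, of which 45 have a probe and 44 were tested. Of these, 15 were higher in the meristem and 8 were lower, and 21 did not pass. The share that passed, 52.3%, was near the 48.6% of all loci (27.1% higher and 21.6% lower). The median difference was 0.25 and its median size 0.85, against 0.10 and 0.59 for all loci. Of those past the threshold on size as well, 4 were higher (*MYB12*, *MYB113*, *EGL3* and *MYB7*) and 4 were lower (*4CL3*, *UGT73C6*, *MYBL2* and *LBD37*). Among all loci, 6.55% passed both thresholds as higher and 6.41% as lower. *UGT73C6* is counted by its fitted difference alone, because its meristem signals were too dim to give a measured size. Its lower bound, a 2.73-fold higher signal in the leaf, falls short of the 4-fold that equals the threshold on size.

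Of the 8 general phenylpropanoid enzymes, which supply coumaroyl-CoA for lignin as well as for flavonoids, 3 were higher in the meristem, 3 were lower and 2 did not pass. Thus 75% passed, against 48.6% of all loci. *C4H*, encoding cinnamate 4-hydroxylase, had a signal of 14.19 and 14.74 in the meristem and 12.72 and 12.82 in the leaf, a difference of 1.70 with an adjusted p of 0.00545 by limma. *4CL3*, the 4-coumarate:CoA ligase linked mainly to flavonoid synthesis, went the other way, with 6.68 and 5.39 in the meristem and 8.53 and 8.55 in the leaf. The leaf was 5.66-fold higher, a difference of -2.50 ± 0.46 (SE) with an adjusted p of 0.0138. Its meristem replicates were 1.29 apart, with replicate 1 higher. That was so for 4 of the 8 genes of this list, whose median gap was -0.08, and *C4H* went the other way with a gap of -0.54.

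In the flavonol branch, with the enzymes that attach sugars and methyl groups, 1 of 8 tested genes was higher in the meristem, 1 was lower and 6 did not pass. Thus 25% passed, against 48.6% of all loci. The gene that was lower, *UGT73C6*, encodes a flavonol glucosyltransferase. Its signal was 0.93 and 1.09 in the meristem, where the probe was not well above background, and 4.29 and 4.41 in the leaf, which gives an at least 2.73-fold higher signal in the leaf (the leaf mean set against the dimmest signal that counted as well above background in the meristem; adjusted p of 0.000547 by limma). *OMT1*, a methyltransferase of flavonols and lignin precursors, had 13.38 and 13.43 in the meristem and 13.23 and 13.02 in the leaf, and its difference of 0.28 did not pass, with an adjusted p of 0.166. The gene that was higher was *UGT89C1*, a flavonol rhamnosyltransferase, with a difference of 1.2 and an adjusted p of 0.0109; it is named because it is the only one of its list, after its value was seen.

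Of the 7 tested genes for anthocyanin decoration and transport, 1 was lower in the meristem and 6 did not pass, so that 14.3% passed against 48.6% of all loci. The gene that passed was *TT19*, a glutathione transferase gene needed for anthocyanin accumulation in the vacuole, with 7.73 and 7.13 in the meristem and 9.03 and 8.94 in the leaf. Its difference was -1.56 ± 0.24 (SE), with an adjusted p of 0.00830 by limma, and it is likewise named after its value was seen. *BGLU10*, an anthocyanin glucosyltransferase gene, had 8.77 and 9.45 in the meristem and 9.29 and 9.77 in the leaf, a difference of -0.42 with an adjusted p of 0.317.

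In the proanthocyanidin branch, known mainly from the seed coat, 2 of 5 genes were higher in the meristem and 3 did not pass. Thus 40% passed, against 48.6% of all loci. The probes of *BAN*, *TT12* and *TT10* were not well above background on any array. *TT2*, the MYB activator of this branch, was the brightest of the list, with 4.54 and 4.98 in the meristem and 4.06 and 3.94 in the leaf. Its difference of 0.77 had an adjusted p of 0.0339 by limma; without meristem replicate 2, leaf replicate 1 or leaf replicate 2 it did not pass. The other gene that passed was *AHA10*, a proton pump of the vacuole, with a difference of 1.47 and an adjusted p of 0.00913, well above background on both meristem arrays and on 1 leaf array.

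Of 9 activators, 4 were higher in the meristem, 1 was lower and 4 did not pass, so that 55.6% passed against 48.6% of all loci. *MYB12*, which activates *CHS*, *CHI*, *F3H* and *FLS1*, had 7.48 and 7.71 in the meristem and 3.22 and 3.30 in the leaf, where it was well above background on 1 of the 2 arrays. The difference was 4.34 ± 0.14 (SE), or 20.2-fold, with an adjusted p of 0.000464 by limma. Its relative *MYB111*, with 4.66 and 4.04 in the meristem and 6.29 and 6.23 in the leaf, was the gene that was lower, by a difference of -1.92 with an adjusted p of 0.00506; *MYB11*, the third member of this group, was not well above background on any of the arrays. The 4 target genes of *MYB12* named above had differences of 0.80, -0.85, 0.60 and -0.19.

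The bHLH gene *EGL3*, a partner of the anthocyanin MYB factors that also acts in trichome formation, had 8.16 and 7.95 in the meristem and 4.02 and 4.91 in the leaf. It was 12-fold higher in the meristem, a difference of 3.59 ± 0.34 (SE) with an adjusted p of 0.00230 by limma. The WD40 gene *TTG1* had 11.09 and 11.30 in the meristem and 11.47 and 11.75 in the leaf, and its difference of -0.42 did not pass, with an adjusted p of 0.107. *GL3*, the relative of *EGL3*, had a difference of 1.25 with an adjusted p of 0.0928. Of the 3 bHLH genes, *TT8* and *EGL3* were thus higher in the meristem, and *GL3* did not pass.

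*MYB113*, a close relative of *PAP1* and *PAP2*, differed in the opposite direction from *PAP1*. Its signal was 9.26 and 8.52 in the meristem and 6.04 and 6.29 in the leaf, a 6.62-fold higher signal in the meristem and a difference of 2.73 ± 0.29 (SE) with an adjusted p of 0.00320 by limma. *MYB113*, *MYB114* and *PAP2* are consecutive genes on chromosome 1 in the gene order of the reference annotation. *MYB114* was not well above background on any of the arrays, and *PAP2* had the difference of -0.94 given above. These genes are similar in sequence; whether a probe of one also binds transcripts of another was not tested, since the probe sequences were not used here.

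All 7 repressors passed, 5 of them higher in the meristem and 2 lower, against 48.6% of all loci that passed in either direction. *MYBL2*, which encodes a small MYB protein that displaces the activators from the bHLH factors, had 8.48 and 8.11 in the meristem and 12.92 and 12.77 in the leaf. The leaf was 23.5-fold higher, a difference of -4.55 ± 0.18 (SE) with an adjusted p of 0.000545 by limma. *LBD37*, a nitrate-responsive repressor of *PAP1* and *PAP2*, was also lower in the meristem, with 9.60 and 9.54 against 11.88 and 11.82 in the leaf, a difference of -2.28 and an adjusted p of 0.000757. Its relatives went the other way: *LBD38*, the brightest of the list on average, had 11.67 and 11.57 in the meristem and 11.15 and 10.92 in the leaf, a difference of 0.58 with an adjusted p of 0.0308, and *LBD39* had a difference of 1.03 with an adjusted p of 0.00410. *LBD38* did not pass when any 1 array was left out, nor with median scaling, where its adjusted p was 0.177 by limma, so that the count of 7 rests on it. The count rests on the background correction as well. With normexp, described below, *LBD38* (adjusted p of 0.135 by limma) and *MYB7* (0.0612) did not pass, while *MYBL2* and *LBD37* did. Only 1 of the 44 further pathway genes tested then passed as higher in the meristem. At most 1 of *CPC*, *MYB4* and *LBD39* can therefore have kept its call.

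*MYB7*, a repressor of the phenylpropanoid and flavonol genes, had 9.78 and 9.62 in the meristem and 7.28 and 7.29 in the leaf. It was 5.34-fold higher in the meristem, a difference of 2.42 ± 0.13 (SE) with an adjusted p of 0.000785 by limma. The other genes of the list that were higher were *MYB4*, a repressor of *C4H*, with a difference of 1.02, and *CPC*, a small MYB gene better known from root hair patterning, with a difference of 1.5. The leaf, in which *PAP1* was higher, was thus also the tissue with the higher signal of the repressors *MYBL2* and *LBD37*. The other 5 repressors, *LBD38* and *LBD39* among them, were higher in the meristem.

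**Figure D4:**
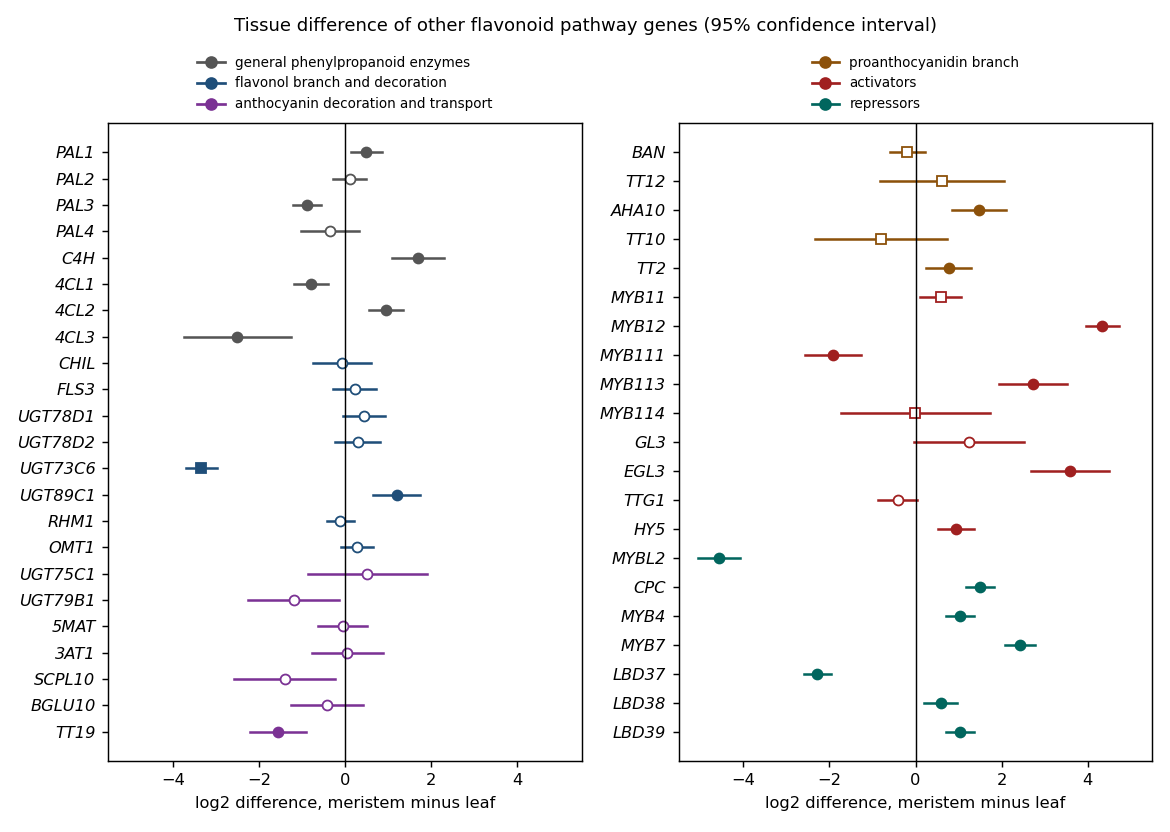
Log2 difference, meristem minus leaf (x axis), of the 44 further pathway genes tested, with 95% confidence intervals, coloured by list; filled symbols passed an adjusted p of 0.05, open ones did not, and squares mark probes that were not well above background on any array of at least 1 tissue, whose values are not a measured size. The differences run from -4.55 for *MYBL2*, a repressor, to 4.34 for *MYB12*, an activator.

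The sign of a small difference rests on how the arrays are scaled to each other. The median difference of all loci was 0.10 with the 75th percentile, -0.20 with scaling to the median, 0.09 with quantile normalization, 0.51 without scaling and 0.86 with scaling to the 7 spike-in probes. *PAP1* was lower and *TT8* higher under all 5, past the threshold in each, with *PAP1* between -2.49 and -1.43 and *TT8* between 0.93 and 1.99. *F3'H* passed under 4, *CHI* and *F3H* under 3, *CHS* under 2 and *LDOX* under 1. *FLS1*, *DFR* and *PAP2* passed under none. *FLS1* and *DFR* changed sign, from -0.49 to 0.58 and from -0.48 to 0.59, whereas *PAP2* stayed between -1.24 and -0.17. Relative to the median of all loci, no gene changed sign among the 5 scalings, with *PAP1* between -2.35 and -2.29 and *TT8* between 0.86 and 1.13; 4 of the scalings only shift all genes alike, so that these values can differ only under quantile normalization.

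Background correction by normexp, which starts from the raw mean signals and adds an offset of 50, ended more calls of the 10 genes than any scaling. It left 7.96% of all loci past the threshold and 0 of the 10 genes. *PAP1* then had a difference of -1.88 with an adjusted p of 0.0985 and *TT8* one of 0.40 with an adjusted p of 0.814. *CHI*, *F3H* and *F3'H* kept their sign at -0.65, 0.31 and 0.25, with adjusted p-values of 0.249, 0.578 and 0.884. Among the 8 further pathway genes past both thresholds, *MYBL2* (-4.08) and *LBD37* (-2.06) passed, each with an adjusted p of 0.0306, whereas *MYB12* had 1.29, *EGL3* 1.27, *MYB113* 1.61, *MYB7* 1.73, *4CL3* -1.72 and *UGT73C6* -0.52 and did not pass. In the methods' t-test without adjustment *PAP1* had a p of 0.0539 and *TT8* one of 0.00768.

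**Figure D5:**
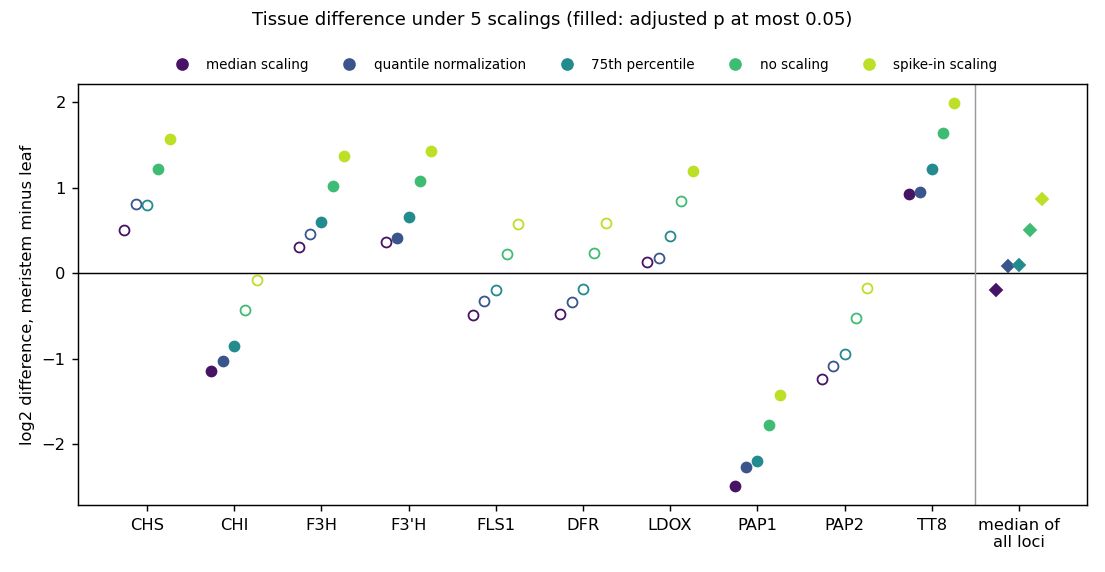
Log2 difference, meristem minus leaf (y axis), of the 10 genes under 5 scalings of the arrays, with the median of all loci at the right as diamonds; filled circles passed an adjusted p of 0.05. All circles of *PAP1* lie below 0 and all of *TT8* above it, while *FLS1* and *DFR* cross 0.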

How the data were processed

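RNA of 2 meristem and 2 leaf samples was labelled with Cy3 and hybridized to 4 one-colour Agilent arrays. The authors deposited the Feature Extraction 9.5.3.1 output of each array as fluorescence intensity per spot, with the background subtracted and no scaling between arrays; the normalization of the data behind the study's own comparison and the genome build of the probe positions are not given in the sources used here. A surrogate value replaces the signal of dim probes, 24.1% to 26.4% of the probes on an array. No sequencing depth applies; the number of arrays limits the precision.

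The deposited processed signal was put on the log2 scale, and each array was shifted so that its 75th percentile equalled the mean of the 4 percentiles. Spots flagged as outliers (10 to 12 per array) were set to missing, spots of one probe were averaged, and the brightest probe stood for a locus. Of 37478 probes, 26236 name one of 25665 loci. Loci with a background-subtracted signal above 0 on both arrays of either tissue (23273) were tested, except 14 with a missing spot. Tissues were compared with limma 3.58.1 (lmFit and eBayes, no block) in R 4.3.3 with the data.table package (version 1.17.8) and Benjamini-Hochberg adjustment; 95% confidence intervals are per gene and not adjusted. The fit was tested on simulated data. Python 3.11.15 with pandas 2.3.3 and matplotlib 3.10.9 drew the figures.

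Where neither array of a tissue had the probe well above background, a fold is a lower bound, which sets the mean of the brighter tissue against the mean, over the arrays of the dim tissue, of the higher of the probe's own signal and the lowest signal well above background.

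The 10 genes, the pathway and marker lists and the thresholds were chosen with earlier results of these data known, so no count over a list is independent evidence of its direction. Of the other pathway lists, the genes named are those that passed the adjusted p and reached 2 in size on the log2 scale, and the brightest of each list; of the marker lists, all. Further names carry values only where the text turns on them: those with a count of 1 or 2, the relatives of a named gene, and the partners and repressors set beside them. These were chosen after their values were seen. Gene names and gene order were looked up in the RefSeq genes of assembly TAIR10.1, which hold all 75 listed loci; no coordinates were taken from it.

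The fit was repeated with quantile normalization, median scaling, spike-in scaling, no scaling, background correction by normexp (offset 50), no filter, a filter on signal well above background, the mean of a locus' probes, the replicate number as a block, the methods' t-test with and without Benjamini-Hochberg adjustment, and leaving out each array. The t-test is the one the study's methods name, here run on the same values.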

Additional observations from a re-analysis of the deposited data

How the results depend on the processing

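Over the 15 alternatives *TT8* passed in 14, *PAP1* in 12, *CHI* in 11, *F3'H* in 10, *F3H* in 6, *CHS* in 3, *LDOX* in 2, *DFR* and *PAP2* in 1 and *FLS1* in 0. *PAP1*, *PAP2* and *CHI* were lower and *CHS*, *F3H*, *F3'H* and *TT8* higher in the meristem under all 15. Each of these genes has 1 probe, so the filters, the mean of probes, the block and the t-tests could not change its difference. Agreement in sign under those alternatives was fixed in advance. With normexp background correction 0 of the 10 genes passed in either direction (*PAP1* had a difference of -1.88 and an adjusted p of 0.0985, *TT8* 0.40 and 0.814), with 1 of the other pathway genes higher and 2 lower (*MYBL2* and *LBD37*) and, past both thresholds, 252 of all loci higher and 655 lower; *TT2* turned to -0.0060. With median scaling 1 member was higher and *OMT1* turned to -0.017. Without scaling 1 was lower, and with spike-in scaling 5 were higher and 1 lower, with 25 other pathway genes higher; in both, 0 passed both thresholds in either direction. Past both thresholds with spike-in scaling, 3005 of all loci were higher and 758 lower. Without scaling *FLS1* (0.22), *DFR* (0.23), *ATML1* (0.26) and *PDF2* (0.31) changed sign, with spike-in scaling *FLS1* (0.58), *DFR* (0.59), *BGLU10* (0.35), *TTG1* (0.35), *ATML1* (0.61) and *PDF2* (0.66), and with quantile normalization *PDF2* (7.5e-05). The share of passing loci that were higher in the meristem was 55.7%, against 29.5% with normexp, 37.2% with median scaling, 73.3% without scaling and 85.1% with spike-in scaling. The methods' t-test without adjustment left 1 member lower and 0 past both thresholds (*PAP1* had an unadjusted p of 0.0539); after Benjamini-Hochberg adjustment 1 member was higher, 1 lower and 0 past both thresholds, with 5 other pathway genes higher, 4 lower and 961 of all loci higher past both thresholds. The causes were not tested.

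Leaving out 1 array gave 1 to 5 members higher and 1 to 4 lower, and 0 to 1 lower past both thresholds. The log2 difference ran from -0.39 without meristem replicate 1 to 0.0095 without meristem replicate 2 for *FLS1*, from -0.60 to 0.24 for *DFR* and from -0.047 to 0.91 for *LDOX*. Without meristem replicate 1 *CHI*, *DFR*, *PAP1* and *PAP2* were the 4 lower; without meristem replicate 2 *CHS*, *F3H*, *F3'H*, *LDOX* and *TT8* were the 5 higher; between the fits without leaf replicate 1 and without leaf replicate 2, *ATML1* ran from -0.42 to 0.10 and *PDF2* from -0.46 to 0.26. In these fits a lone array was taken to vary like the pair of the other tissue. The labels tie the replicates of the tissues by number alone; the correlation of their deviations was 0.0902 over all loci tested and 0.207 over those well above background in both tissues. With the number as a block 2 members were higher and 2 lower, since *F3H* had an adjusted p of 0.0725; *TT2* also lost its call. Dim probes limit *PAP2* and, in the leaf, *MYB12*.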

Other observations

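The list of genes for anthocyanin decoration and transport also held probes with a wide gap between the meristem replicates. The log2 signal was 1.22 higher in replicate 1 than in replicate 2 for *SCPL10*, an acyltransferase gene, and 1.08 higher for *UGT79B1*, a xylosyltransferase gene, whereas for *BGLU10* it was lower in replicate 1, with a gap of -0.68. *SCPL10* had 7.46 and 6.24 in the meristem and 8.24 and 8.28 in the leaf, and its difference of -1.40 did not pass, with an adjusted p of 0.0579 by limma. *UGT79B1* had 6.67 and 5.59 against 7.25 and 7.39, a difference of -1.19 with an adjusted p of 0.0669. *UGT75C1*, a glucosyltransferase gene, had 7.03 and 7.12 in the meristem and 5.83 and 7.27 in the leaf, so that its leaf replicates were the ones that lay apart. *SCPL10*, *UGT79B1* and *UGT75C1* were chosen after their values were seen.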
